A study of Mus musculus with 24 samples.

Results

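The enzymes and transporters of glycolysis, lactate export, the pentose phosphate pathway and glycogen metabolism were examined in mouse adipocyte precursors before and after differentiation. The 32 genes were taken by symbol from the 24825 genes listed in every library: Hk1, Hk2, Gpi1, Pfkl, Pfkm, Pfkp, Pfkfb3, Aldoa, Aldoc and Tpi1 (upper glycolysis), Gapdh, Pgk1, Pgam1, Eno1, Eno3 and Pkm (lower glycolysis), Ldha, Ldhb, Slc16a1 and Slc16a3 (lactate), G6pdx, Pgls and Pgd (oxidative pentose phosphate), Rpia, Rpe, Tkt and Taldo1 (non-oxidative pentose phosphate), and Gys1, Gbe1, Pygb, Pygl and Ugp2 (glycogen). RNA-seq was made from the stromal vascular fraction of inguinal white fat (a mixture of cells in which adipocyte precursors are found) of Nfia flox/flox mice and immortalized with a retrovirus for SV40 large T antigen. There were 4 cell types: ctrl, Cre (retroviral Cre recombinase, which removes exon 2 of Nfia), Cre + NFIA (Cre with the full-length protein carrying a 3xFLAG tag) and Cre + NFIA Δpro#3 (Cre with a tagged protein that lacks a C-terminal proline-rich stretch, here Δpro#3). Each was collected at day 0 and at day 7 of differentiation with isobutylmethylxanthine, indomethacin, dexamethasone, insulin, T3 and rosiglitazone, in 3 libraries per group (24 libraries, 8 groups). The design asks how these genes respond when Nfia is targeted, and whether full-length or mutant NFIA restores them.

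Glycolysis splits glucose into pyruvate in the cytosol, and lactate dehydrogenase turns pyruvate into lactate, which monocarboxylate transporters carry across the cell membrane. The pentose phosphate pathway branches off at glucose 6-phosphate. Its oxidative arm makes NADPH, which fat cells use to build fatty acids, and its non-oxidative arm rearranges sugar phosphates and returns them to glycolysis. Many steps are run by several isozymes from separate genes, and adipocytes are known to carry hexokinase 2 and to store some glucose as glycogen.

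Levels are in FPKM, read counts scaled by gene length and library total, from uniquely aligned reads. Library totals were 7.73 to 13.09 M reads at day 0 and 9.15 to 14.62 M at day 7, so that 3 reads corresponded to 0.205 to 0.388 reads per M, for counting error only. A gene was tested where its level was at least 1 FPKM in at least 3 libraries, which held for 31 of the 32 genes and 12640 genes in all. It passed at a Benjamini-Hochberg adjusted p (limma) under 0.05 with a change of at least 1.5-fold on the log2(FPKM + 1) scale, and "rose" and "fell" refer to this test. Nothing in the labels says whether the 3 libraries of a group came from separate cultures, so the p-values measure the spread between these libraries, which may be technical. Nfia itself was at 9.15 to 9.81 FPKM in ctrl, 9.49 to 10.7 in Cre, 83.9 to 97.1 in Cre + NFIA and 94.98 to 111 in Δpro#3 libraries at day 7. The gene-level value does not separate transcripts with and without exon 2 and so does not check the deletion, and the libraries are called Cre by their labels.

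Levels differed widely between the genes. Per length, Gapdh, the dehydrogenase of the middle of glycolysis, was highest at 881 to 1582 FPKM over all 24 libraries. Pygl, a glycogen phosphorylase, was at most 2.40 FPKM and Aldoc, a minor aldolase, at most 1.53. In ctrl at day 7, 11 of the 31 genes tested were among the top 5% of tested genes by mean FPKM. Eno1, the main enolase gene of most tissues, was listed at 0 in every library but 1, which held 0.0444 FPKM, and was not tested. Of its longest coding transcript 85.6% matched other places in the mm9 genome at 95% identity or more over at least 100 bases, and reads that align to several places were not counted. The same share was over 50% for Gpi1, Tpi1, Gapdh, Pgk1, Pgam1 and Ldhb, 38.2% for Rpe, 19.2% for Ldha and 0% for the other 23 genes. Whether reads were lost to such copies was not tested, and Gapdh and Pgk1, with shares of 88.6% and 95.7%, held 881 FPKM and 209.5 FPKM or more in every library.

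The starts of transcription were compared for short sequence motifs, because these genes are often described as targets of hypoxia-inducible factors, which bind around ACGTG. RefSeq promoter windows (GRCm38.p6, 250 bases before to 50 after a start) held ACGTG on either strand for 17 of the 32 genes, or 53.1%, against 21.8% of all 27025 genes with a window. A gene counted if any of its windows held it. By window, 20 of the 46 windows of these genes held it, against 19.6% of all 32851 windows. The genes compared against include those not expressed here, and base composition was not matched. The windows of 13 of 20 glycolysis and lactate genes held it, 3 of 5 glycogen genes, and 1 of 7 pentose phosphate genes (G6pdx). Among the 20 genes that passed in a day 7 comparison 10 held it, and among the 11 tested genes that passed in none 7 did. The E-box CACGTG, which contains ACGTG, was in the windows of 4 genes (12.5%, against 8.09% of all), TGACNNNGC in 5 (15.6%, against 14%) and the nuclear factor I palindrome TTGGC followed by GCCAA after 5 bases in 0 (0.0444% of all). A match describes these letters and not binding. Shown are Taldo1, which changed most and held no ACGTG, and Hk2 and Hk1, which moved in opposite directions. Hk2 and Hk1 both held ACGTG, Hk1 in 1 of its windows. Also shown is Ldha, with the most matches (5), in 1 of its windows. Each CACGTG counts there as a match on both strands, and the matches form 3 marked stretches. Each is written from 5′ to 3′ on the strand of its gene, with ACGTG or its reverse complement in capitals. The Taldo1 window is chr7:141391910-141392209 (+), Hk2 chr6:82774405-82774704 (-), Hk1 chr10:62340372-62340671 (-) and Ldha chr7:46845554-46845853 (+), all on GRCm38.p6.
Taldo1: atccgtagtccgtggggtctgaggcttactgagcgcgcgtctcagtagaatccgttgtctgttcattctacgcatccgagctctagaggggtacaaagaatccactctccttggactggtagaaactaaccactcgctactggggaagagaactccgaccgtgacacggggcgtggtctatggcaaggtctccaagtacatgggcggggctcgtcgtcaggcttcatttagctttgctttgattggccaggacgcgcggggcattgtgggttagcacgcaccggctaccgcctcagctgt
Hk2: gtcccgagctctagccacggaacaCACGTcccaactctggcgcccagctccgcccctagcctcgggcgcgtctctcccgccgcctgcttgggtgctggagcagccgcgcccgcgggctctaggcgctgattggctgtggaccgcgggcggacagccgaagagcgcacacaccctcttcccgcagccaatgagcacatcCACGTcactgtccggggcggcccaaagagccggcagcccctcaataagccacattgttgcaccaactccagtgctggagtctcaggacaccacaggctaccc
Hk1: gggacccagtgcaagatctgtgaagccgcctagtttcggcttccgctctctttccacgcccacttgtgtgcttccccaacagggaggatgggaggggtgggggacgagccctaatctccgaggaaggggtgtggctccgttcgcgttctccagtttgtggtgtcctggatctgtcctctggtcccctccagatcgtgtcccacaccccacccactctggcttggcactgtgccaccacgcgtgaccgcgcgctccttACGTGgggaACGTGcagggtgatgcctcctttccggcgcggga
Ldha: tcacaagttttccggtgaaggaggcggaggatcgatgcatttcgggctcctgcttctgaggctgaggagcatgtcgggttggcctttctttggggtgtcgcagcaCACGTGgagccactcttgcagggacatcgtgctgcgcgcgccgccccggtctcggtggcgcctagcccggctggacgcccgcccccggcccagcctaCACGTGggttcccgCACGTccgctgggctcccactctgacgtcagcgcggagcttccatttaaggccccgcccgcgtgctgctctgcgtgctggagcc

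At day 7, 9 of the 31 genes tested were lower in Cre than in ctrl cells and 1 was higher, whereas 9.92% and 13.6% of all tested genes fell and rose. The 9 were Taldo1, Gbe1, Rpia, Pgd, G6pdx, Tkt, Aldoa, Gys1 and Hk2, and the 1 that rose was Hk1. In Cre + NFIA against Cre, 13 rose and 2 fell, with 12.6% and 16.2% of all tested genes doing so. Those that rose were Gbe1, Taldo1, Rpia, Aldoa, Gys1, G6pdx, Pgd, Ldha, Tkt, Hk2, Pygb, Pgk1 and Tpi1, and those that fell were Hk1 and Slc16a3. In Δpro#3 against Cre 0 genes rose by limma (5 at an unadjusted p under 0.05, and 0 by limma voom on recovered reads), and Taldo1, Pfkfb3, Ldhb, Rpia and Gbe1 fell, beside 0.941% and 4.03% of all tested genes. Against Cre + NFIA, Δpro#3 cells were lower in 15 genes and higher in 2 (Hk1 and Slc16a3), with 16.1% and 19.5% of all tested genes lower and higher. Cre + NFIA differed from ctrl in 1 gene, Pgk1, which was higher (2.03% of all tested genes were higher, 2.04% lower). In this last comparison 12 genes were higher and 2 lower at an unadjusted p under 0.05. Shares of all tested genes at an unadjusted p were not counted for any comparison. By adjusted p alone 8 were higher and 2 lower here, beside 8.81% and 9.15% of all tested genes. These comparisons share libraries, so each is given with its own values.

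**Figure D1:**
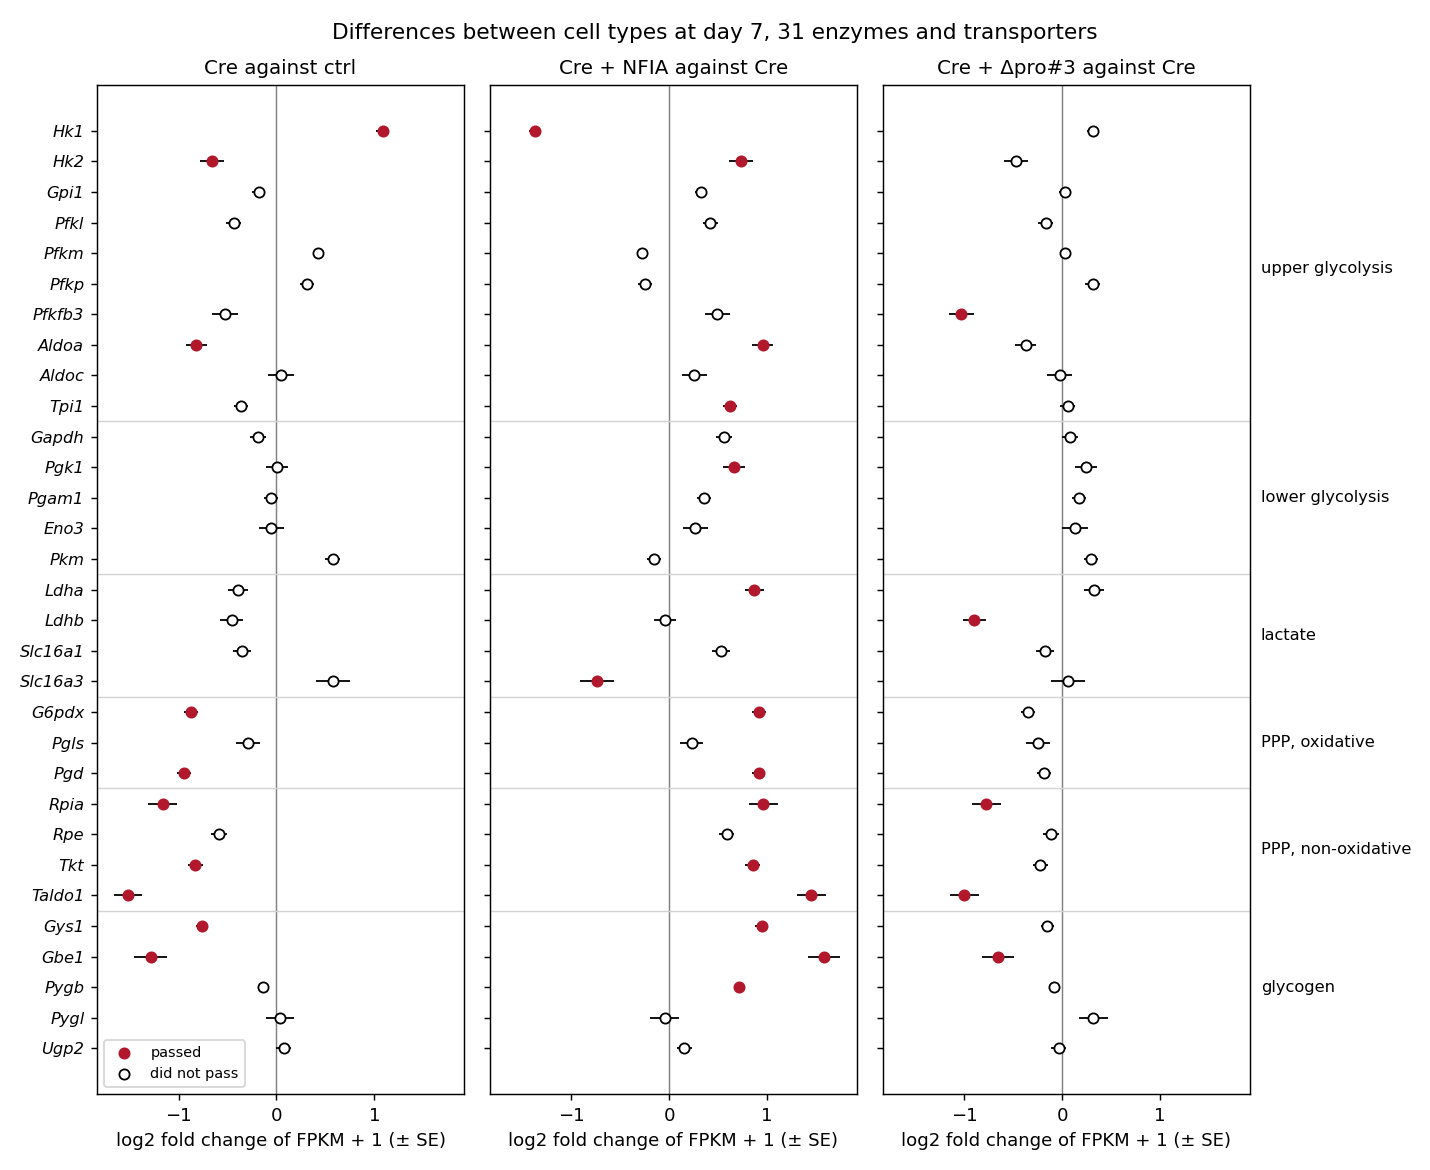
Log2 fold change of FPKM + 1 (x axis, bars are standard errors) of the 31 tested genes (y axis, ordered by reaction; PPP, pentose phosphate pathway) in 3 comparisons at day 7, filled where the gene passed. Pentose phosphate genes, Gys1 and Gbe1 lie to the left in Cre against ctrl and to the right in Cre + NFIA against Cre, with Hk1 on the opposite side each time.

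The median log2 change of the 31 genes was -0.35 in Cre against ctrl (all tested genes 0.09), 0.53 in Cre + NFIA against Cre (-0.06), -0.08 in Δpro#3 against Cre (0.02) and -0.57 in Δpro#3 against Cre + NFIA (0.10). Adipocyte markers moved with these differences. All 10 of the list (Adipoq, Fabp4, Plin1, Cidec, Lpl, Pparg, Cebpa, Lipe, Retn and Cfd) were lower in Cre than in ctrl, higher in Cre + NFIA than in Cre, and lower in Δpro#3 than in Cre. Their summed level was 22240 to 25940 FPKM in ctrl, 4452 to 9560 in Cre, 20910 to 21130 in Cre + NFIA and 853 to 2152 in Δpro#3 cells. The 9 precursor and fibroblast markers summed to 1322 to 1449, 2354 to 2659, 1037 to 1164 and 2571 to 3001 FPKM in the same order. Of the 8 tested, 6 passed as higher in Cre than in ctrl and 7 as lower in Cre + NFIA than in Cre. In Δpro#3 against Cre 0 passed as higher and 1 as lower (log2 change -1.06), beside 0.941% and 4.03% of all tested genes. The part of either list of markers in the changes below was not tested. In bulk RNA fewer cells of a type and less RNA per cell cannot be told apart. Markers of other cells were low but some moved with the groups. The 6 leukocyte markers listed summed to at most 10.5 FPKM at day 7 with Ptprc, Adgre1 and Itgam at no more than 3 reads in any library, and the 5 endothelial markers to at most 5.03 with Cdh5 and Emcn at no more than 3 reads. The 7 skeletal muscle markers summed to at most 6.66 FPKM with Myod1, Myog, Ckm and Myh1 at no more than 3 reads, as were the 3 erythroid markers. Acta1, the 1 muscle marker tested, was at 2.12 to 3.82 FPKM in ctrl, 1.38 to 2.09 in Cre, 5.40 to 6.43 in Cre + NFIA and 1.64 to 2.95 in Δpro#3 cells, and was higher in Cre + NFIA than in Cre (log2 change 1.38) and ctrl (0.83). The leukocyte marker Lyz2 (log2 change 0.88) and the endothelial marker Kdr (1.37) were higher in Δpro#3 than in Cre, and Csf1r (-0.76) and Tek (-0.74) were lower in Cre + NFIA than in Cre. Of the 2 endothelial markers tested, the other went the opposite way each time without passing (-0.37 and 0.34). The part of all these markers in the changes below was not tested either. The 12 proliferation genes tested had log2 changes between -0.24 and 0.19 in Cre against ctrl.

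The pentose phosphate genes were lower in Cre than in ctrl cells in both arms, with 5 of the 7 passing. The median log2 change was -0.87 over the 3 oxidative and -0.996 over the 4 non-oxidative genes. The 4 non-oxidative enzymes summed to 642 to 773 FPKM in ctrl, 240.3 to 351 in Cre, 664 to 689 in Cre + NFIA and 184 to 203 in Δpro#3 cells at day 7, and the 3 oxidative enzymes to 484.5 to 548, 261 to 328, 506 to 527 and 238 to 251 FPKM. Taldo1, transaldolase of the non-oxidative arm (mm9 chr7:148578098-148588867), was at 396, 484 and 435 FPKM in the ctrl libraries, 159, 189 and 116.5 in Cre, 429, 409 and 414 in Cre + NFIA, and 68.1, 85.1 and 74.3 in Δpro#3. Every Cre library was below every ctrl and Cre + NFIA library, and every Δpro#3 library was below every Cre library. It fell 2.86-fold in Cre against ctrl (log2 change -1.52 ± 0.145 SE, adjusted p = 4.7e-06), rose 2.73-fold in Cre + NFIA relative to Cre (adjusted p = 3.7e-06) and was 2-fold lower in Δpro#3 against Cre (adjusted p = 0.00098). It was 5.47-fold lower in Δpro#3 than in Cre + NFIA (adjusted p = 3.3e-08).

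Rpia, ribose 5-phosphate isomerase, was at 54.9, 68.2 and 59.5 FPKM in ctrl, 26.6, 34.8 and 20.1 in Cre, 52.5, 52.5 and 52.8 in Cre + NFIA and 14.5, 16 and 14.9 in Δpro#3 libraries. The Cre group lay between the others without overlap. It was 2.24-fold lower in Cre than in ctrl (adjusted p = 3.5e-05), 1.95-fold higher in Cre + NFIA than in Cre (adjusted p = 0.00012) and 1.71-fold lower in Δpro#3 than in Cre (adjusted p = 0.004), and this last change no longer passed without Cre replicate 2 (log2 change -0.58). Tkt, transketolase, was at 171, 201 and 184 FPKM in ctrl, 107, 113 and 92.45 in Cre, 187, 182 and 195 in Cre + NFIA and 89.0, 90.9 and 85.4 in Δpro#3 cells. It fell 1.78-fold in Cre (adjusted p = 3.6e-06) and rose 1.81-fold with NFIA (adjusted p = 1.5e-06), and its log2 change of -0.23 in Δpro#3 against Cre did not pass. Rpe, ribulose phosphate epimerase, had 20.1, 19.7 and 19.8 FPKM in ctrl, 13.1, 14.6 and 11.3 in Cre, 19.8, 20.2 and 19.6 in Cre + NFIA and 12.3, 10.8 and 12.4 in Δpro#3 libraries. It passed only in Δpro#3 against Cre + NFIA (1.62-fold lower, adjusted p = 7.5e-06), and its log2 change of -0.58 in Cre against ctrl was just under the limit.

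In the oxidative arm, G6pdx, the X-linked glucose 6-phosphate dehydrogenase that commits glucose to the pathway, was at 223, 244 and 238 FPKM in ctrl, 132.5, 141 and 112 in Cre, 240.5, 244.5 and 242 in Cre + NFIA and 99.2, 101 and 99.2 in Δpro#3 cells. Pgd, which carries out the other NADPH-forming step, was at 206, 231 and 221 FPKM in ctrl, 114, 125 and 102 in Cre, 209.6, 210.2 and 222 in Cre + NFIA and 98.0, 101 and 99.1 in Δpro#3 libraries. For both genes the ctrl and Cre + NFIA libraries were all above the Cre libraries, and the Δpro#3 libraries were all below them. G6pdx fell 1.83-fold in Cre against ctrl (adjusted p = 1.7e-06) and rose 1.89-fold with NFIA (adjusted p = 4.9e-07), and Pgd fell 1.93-fold (adjusted p = 9.4e-07) and rose 1.88-fold (adjusted p = 3.8e-07). Δpro#3 against Cre gave log2 changes of -0.35 and -0.19, which did not pass. Pgls, the lactonase between these steps, passed in no day 7 comparison and was at 41.2 to 73.2 FPKM over the 12 libraries.

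**Figure D2:**
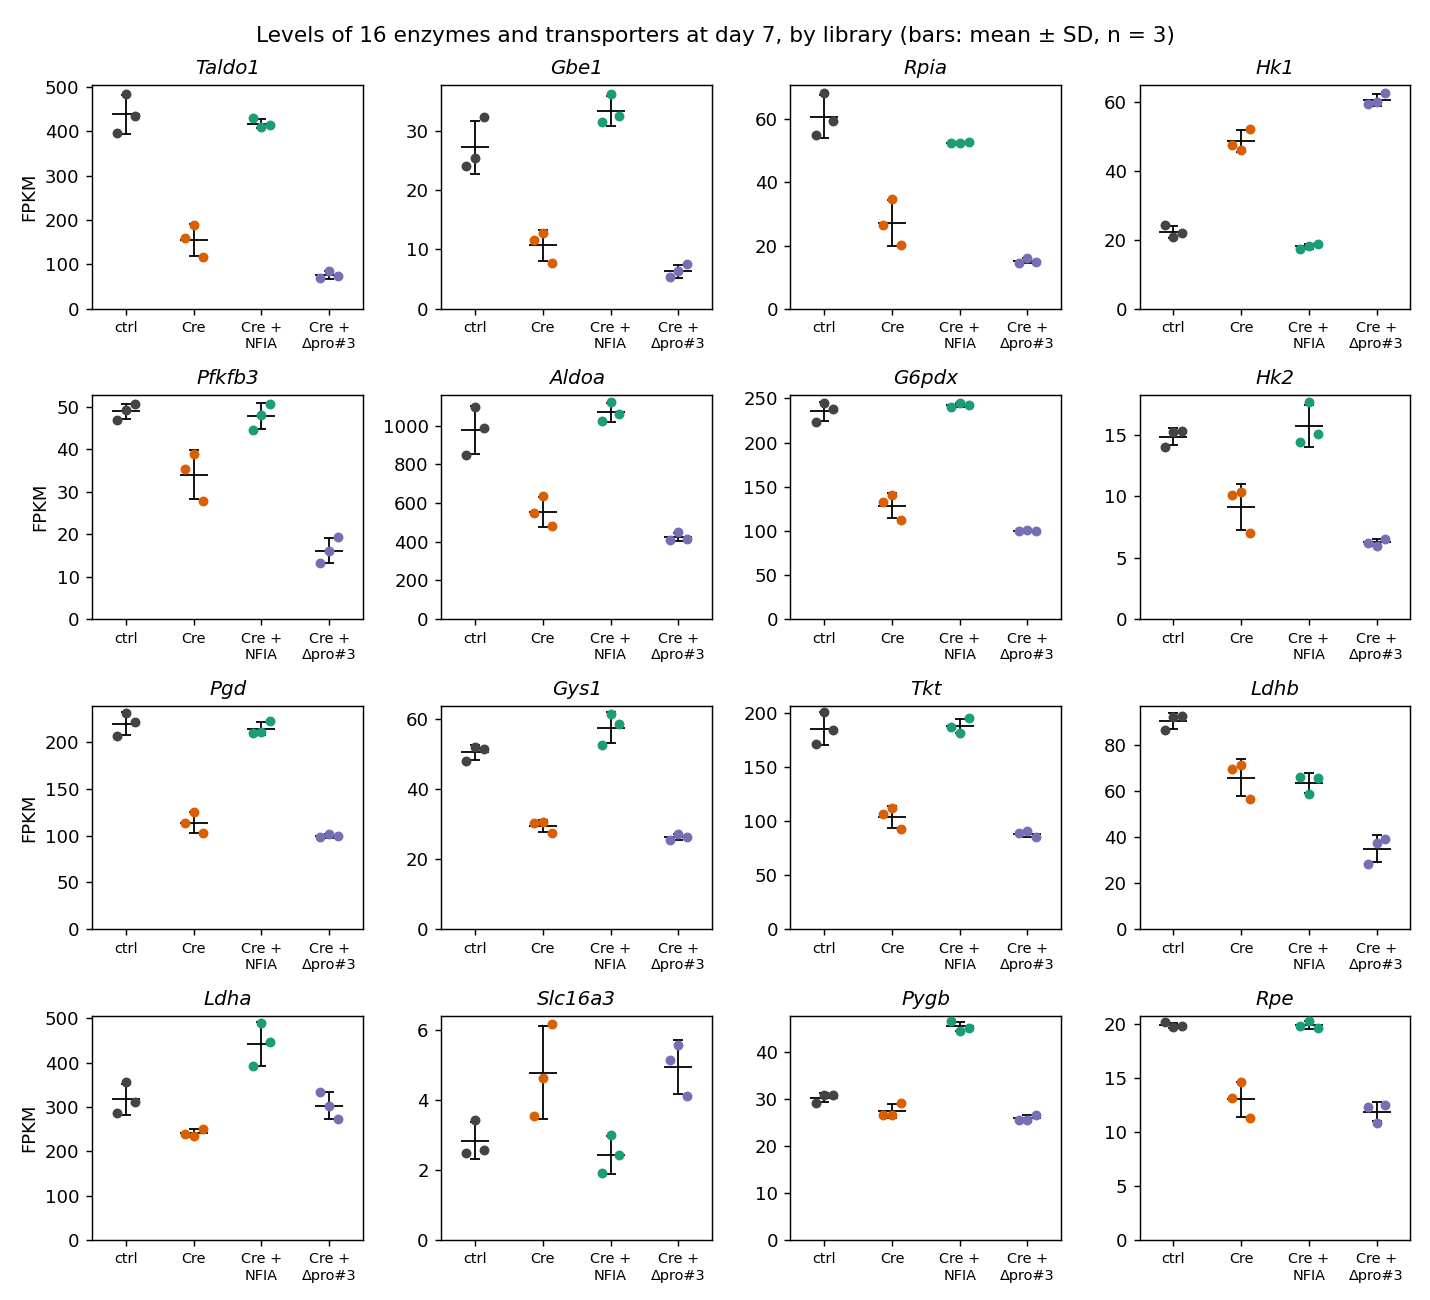
FPKM (y axis, from 0) in each of the 12 day 7 libraries for the 16 genes with the largest changes, by cell type (x axis); points are libraries and bars mean ± SD of 3. Taldo1, Gbe1 and Rpia are lowest in Δpro#3 and low in Cre cells, and Hk1 shows the opposite order, with Δpro#3 libraries at 59.3 to 62.7 FPKM.

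The 2 hexokinases, which trap glucose as glucose 6-phosphate, moved in opposite directions. Hk1, the hexokinase of most tissues (mm9 chr10:61731603-61842656), was at 24.3, 20.9 and 21.95 FPKM in ctrl at day 7, 47.6, 46.1 and 52.2 in Cre, 17.4, 18.2 and 18.8 in Cre + NFIA and 59.3, 60.0 and 62.7 in Δpro#3 cells. It rose 2.12-fold in Cre against ctrl (log2 change 1.09 ± 0.06 SE, adjusted p = 3.6e-07), fell 2.59-fold in Cre + NFIA relative to Cre (adjusted p = 1.5e-08) and was 3.22-fold higher in Δpro#3 than in Cre + NFIA (adjusted p = 2.6e-09). Its 4 groups did not overlap at day 7. Hk2, the insulin-regulated hexokinase of muscle and fat (mm9 chr6:82675019-82724448), was at 14.05, 15.2 and 15.3 FPKM in ctrl, 10.1, 10.4 and 6.999 in Cre, 14.5, 17.7 and 15.1 in Cre + NFIA and 6.20, 5.97 and 6.565 in Δpro#3 libraries. It fell 1.58-fold in Cre against ctrl (adjusted p = 0.00055) and rose 1.66-fold with NFIA (adjusted p = 0.0002), and both changes dropped under the fold limit without Cre replicate 3 (log2 changes -0.50 and 0.57). Δpro#3 cells were 2.3-fold lower than Cre + NFIA (adjusted p = 2.4e-06).

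As a share of the summed FPKM of both hexokinases, Hk2 made up 39.95% ± 2.9 (SD, n = 3) in ctrl at day 7 (36.65 to 42.1%), 15.9% ± 3.6 in Cre (11.8 to 18.4%), 46.4% ± 2.5 in Cre + NFIA (44.5 to 49.2%) and 9.33% ± 0.24 in Δpro#3 cells (9.05 to 9.48%). At day 0 the 4 cell types held 8.48% ± 0.44 (ctrl), 9.075% ± 0.93 (Cre), 8.49% ± 0.72 (Cre + NFIA) and 7.81% ± 1.07 (Δpro#3). The Δpro#3 share at day 7 lay just above its own day 0 range of 6.91 to 9.001%, and the shares of ctrl and Cre + NFIA at day 7 were at 36.65% and above. No test was run on shares. The rise in the share in ctrl combined a fall of Hk1 from 49.2 ± 4.2 to 22.4 ± 1.7 FPKM with a rise of Hk2 from 4.55 ± 0.19 to 14.9 ± 0.7 FPKM.

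**Figure D3:**
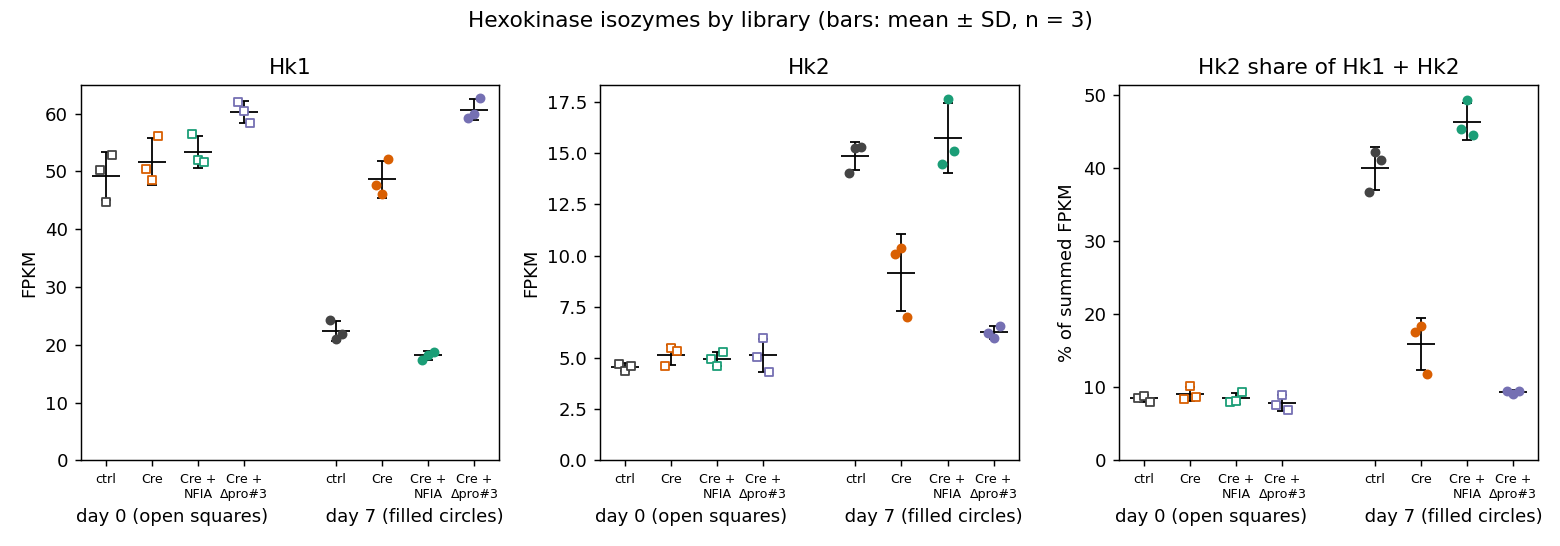
Hk1 and Hk2 in FPKM and the Hk2 share of their sum in percent (y axes, from 0) in the 24 libraries, by cell type and day (x axis); open squares are day 0, filled circles day 7, bars mean ± SD of 3. The shares of ctrl and Cre + NFIA at day 7 stand apart at 36.65% and above, while Cre lies at 11.8 to 18.4% and Δpro#3 at 9.05 to 9.48%.

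Among the other upper glycolysis genes, Aldoa, the main aldolase, was at 848.5, 1097 and 987 FPKM in ctrl, 550.0, 634.5 and 479.8 in Cre, 1024, 1121 and 1060.0 in Cre + NFIA and 409, 450.5 and 416 in Δpro#3 cells. Cre and Δpro#3 libraries were all below ctrl and Cre + NFIA libraries. It fell 1.76-fold in Cre (adjusted p = 5.4e-05) and rose 1.94-fold with NFIA (adjusted p = 1.1e-05). Its minor partner Aldoc was at 0.357 to 0.95 FPKM in these libraries and passed in no comparison at day 7. Pfkfb3, which makes the activator of phosphofructokinase, fructose 2,6-bisphosphate, was at 47.0, 49.2 and 50.5 FPKM in ctrl, 35.3, 38.95 and 27.8 in Cre, 44.6, 48.05 and 50.7 in Cre + NFIA and 13.2, 15.9 and 19.3 in Δpro#3 libraries. The Δpro#3 libraries were below all others. Δpro#3 was 2.04-fold lower than Cre (adjusted p = 0.0006) and 2.87-fold lower than Cre + NFIA (adjusted p = 6e-07), whereas the log2 change of -0.52 in Cre against ctrl did not pass. Tpi1, triose phosphate isomerase, was 1.54-fold higher in Cre + NFIA than in Cre (adjusted p = 1.4e-05), a change that no longer passed without Cre + NFIA replicate 2 (log2 change 0.58).

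Phosphofructokinase, the committed step of glycolysis, is encoded by Pfkl, Pfkm and Pfkp, named for liver, muscle and platelet. Pfkl made up 73.2% ± 1.7 of their summed FPKM in ctrl at day 7, 60.1% ± 1.9 in Cre, 71.0% ± 1.9 in Cre + NFIA and 55.6% ± 0.9 in Δpro#3 cells (SD, n = 3), against 56.15% to 63.7% as group means at day 0. The shares of Cre libraries (58.0 to 61.7%) and Δpro#3 libraries (54.6 to 56.3%) were below every ctrl and Cre + NFIA library (68.9% and above). Of the 3 genes 1 passed at day 7: Pfkl was 1.504-fold lower in Δpro#3 than in Cre + NFIA (adjusted p = 2.7e-05), close to the limit, and did not pass without Cre + NFIA replicate 2 (log2 change -0.54), Cre + NFIA replicate 3 (-0.55) or Δpro#3 replicate 3 (-0.54). The remaining upper glycolysis gene, Gpi1, glucose phosphate isomerase, was at 85.8 to 118 FPKM and passed in no day 7 comparison.

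The 5 tested genes of lower glycolysis had log2 changes between -0.19 and 0.57 in Cre against ctrl, all under the limit. Their sum was 1703 to 1900 FPKM in ctrl and 1766 to 1913 in Cre at day 7, beside 2191 to 2665 in Cre + NFIA and 1928 to 2188 in Δpro#3 cells. Pgk1, the X-linked phosphoglycerate kinase that makes ATP, was at 224 to 247 FPKM in ctrl, 219 to 250.4 in Cre, 325 to 448 in Cre + NFIA and 256 to 316 in Δpro#3 libraries. It rose 1.58-fold with NFIA against Cre (adjusted p = 0.00026) and was also 1.58-fold higher than in ctrl (adjusted p = 0.0019). Without Cre + NFIA replicate 2, the library with 448 FPKM, both changes dropped under the fold limit (log2 changes 0.54 and 0.54, limma adjusted p 0.00086 and 0.0068). Pkm, pyruvate kinase, whose muscle isoforms share this gene and were not separated, was at 326 to 351 FPKM in ctrl and 482 to 533.5 in Cre, a log2 change of 0.57 that was just under the limit.

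The lactate genes moved in both directions. Ldha, which forms lactate from pyruvate, was at 287, 355 and 311 FPKM in ctrl, 238, 235.0 and 250.5 in Cre, 392, 491 and 446 in Cre + NFIA and 334, 302 and 273 in Δpro#3 cells, and rose 1.83-fold with NFIA against Cre (adjusted p = 1.2e-05). Ldhb, the isozyme of oxidative tissues, was at 86.9, 92.2 and 93.0 FPKM in ctrl, 69.6, 71.55 and 56.9 in Cre, 66.3, 58.9 and 65.8 in Cre + NFIA and 28.5, 37.5 and 39.4 in Δpro#3 libraries. Cre + NFIA and Cre overlapped (log2 change -0.05, adjusted p = 0.75), and Δpro#3 was 1.86-fold lower than Cre (adjusted p = 0.00065) and 1.81-fold lower than Cre + NFIA (adjusted p = 3.2e-05). Slc16a3, a lactate exporter of glycolytic cells, was low, at 2.496, 3.44 and 2.56 FPKM in ctrl, 3.53, 4.62 and 6.18 in Cre, 1.91, 2.99 and 2.415 in Cre + NFIA and 5.15, 5.58 and 4.10 in Δpro#3 cells. It was 1.67-fold lower in Cre + NFIA than in Cre (adjusted p = 0.003), not without Cre replicate 3 (log2 change -0.57), and 1.73-fold higher in Δpro#3 than in Cre + NFIA (adjusted p = 0.0015). Its partner Slc16a1, which carries lactate in either direction, was at 18.0, 17.7 and 19.2 FPKM in ctrl, 15.0, 14.6 and 12.9 in Cre, 19.2, 23.0 and 20.4 in Cre + NFIA and 11.3, 11.9 and 14.3 in Δpro#3 libraries, and was 1.62-fold lower in Δpro#3 than in Cre + NFIA (adjusted p = 2.6e-05).

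Of the 5 glycogen genes, Gbe1 and Gys1, which build the polymer, fell in Cre against ctrl. Gbe1, the branching enzyme (mm9 chr16:70314194-70569961), was at 24.01, 25.35 and 32.4 FPKM in ctrl, 11.55, 12.8 and 7.76 in Cre, 31.4, 36.2 and 32.6 in Cre + NFIA and 5.28, 6.31 and 7.465 in Δpro#3 cells. Cre and Δpro#3 libraries overlapped neither with each other nor with the rest. It fell 2.44-fold in Cre against ctrl (adjusted p = 4.2e-05) and rose 2.99-fold with NFIA (adjusted p = 5.6e-06), and Δpro#3 was 4.71-fold lower than Cre + NFIA (adjusted p = 1.8e-07). Its 1.57-fold fall in Δpro#3 against Cre (adjusted p = 0.018) was lost without Cre replicate 1, Cre replicate 2 or Δpro#3 replicate 1 (adjusted p 0.074, 0.081 and 0.081). Gys1, glycogen synthase, was at 48.1, 52.1 and 51.4 FPKM in ctrl, 30.3, 30.6 and 27.4 in Cre, 52.7, 61.5 and 58.45 in Cre + NFIA and 25.6, 27.1 and 26.4 in Δpro#3 libraries. It fell 1.69-fold in Cre (adjusted p = 2.2e-06) and rose 1.92-fold with NFIA (adjusted p = 1.9e-07).

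Pygb, the main glycogen phosphorylase here, was at 29.2, 30.9 and 30.7 FPKM in ctrl, 26.4, 26.6 and 29.1 in Cre, 46.5, 44.4 and 45.1 in Cre + NFIA and 25.4, 25.4 and 26.6 in Δpro#3 cells. Its Cre + NFIA libraries were above all others at day 7. Cre + NFIA was 1.63-fold above Cre (adjusted p = 2.2e-07) and 1.73-fold above Δpro#3 (adjusted p = 5.2e-08), and its log2 change against ctrl did not reach the limit. The second phosphorylase, Pygl, was at 1.56, 1.52 and 1.48 FPKM in ctrl, 1.33, 1.74 and 1.70 in Cre, 0.897, 1.96 and 1.79 in Cre + NFIA and 2.04, 2.40 and 2.235 in Δpro#3 libraries and passed in no comparison between cell types at day 7. Ugp2, which activates glucose as UDP-glucose, was at 23.4 to 31.8 FPKM and also passed in none.

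Before differentiation fewer genes passed. In Cre against ctrl at day 0, 0 of the 31 genes passed by limma and 0 by limma voom, beside 0.087% of all tested genes higher and 0.522% lower by limma. At an unadjusted p under 0.05 there were 8, 6 higher and 2 lower. By adjusted p alone 2 were higher and 1 lower, beside 1.63% and 1.7% of all tested genes. In Cre + NFIA against Cre 4 rose and 1 fell (3.77% and 3.14% of all tested genes). Pfkp rose 2.06-fold, from 6.70 to 7.05 FPKM in Cre to 15.0 to 15.7 in Cre + NFIA (adjusted p = 2.1e-07), and the mutant had 8.79 to 8.998 FPKM. The others were Pgam1, phosphoglycerate mutase (1.76-fold, adjusted p = 5.9e-05), G6pdx (1.53-fold, adjusted p = 6.1e-06) and Eno3, the muscle enolase (1.57-fold, adjusted p = 0.024, lost without Cre replicate 2 at an adjusted p of 0.075, Cre + NFIA replicate 1 at 0.071 or Cre + NFIA replicate 2 at 0.064), and Ldhb fell 1.61-fold (adjusted p = 0.00065). In Δpro#3 against Cre 4 rose and 0 fell by limma (3 lower at an unadjusted p under 0.05, 0 by voom), beside 1.55% and 1.91% of all tested genes: Pgam1 1.85-fold (adjusted p = 0.0001), Ldha 1.66-fold (adjusted p = 0.00037), Pgls 1.56-fold (adjusted p = 0.0021) and Pgk1 1.52-fold (adjusted p = 0.0001). Without Cre replicate 2 neither Pgls (log2 change 0.58) nor Pgk1 (0.56) passed, and Pgk1 also not without Δpro#3 replicate 2 (0.56). The 10 adipocyte markers summed to 76.6 to 122 FPKM over all day 0 libraries.

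Over differentiation, 13 of the 31 genes rose and 5 fell in ctrl cells (18.9% and 19.4% of all tested genes), 14 rose and 5 fell in Cre + NFIA (18.7% and 19.2%), 8 rose and 1 fell in Cre (11.8% and 6.08%), and 0 rose by limma and 6 fell in Δpro#3 cells (8.01% and 4.07%). After quantile normalization the Cre count was 7 and 3. In Δpro#3 cells 8 were higher at an unadjusted p under 0.05 and 1 by voom. All 7 pentose phosphate enzymes rose in ctrl and in Cre + NFIA cells. Taldo1 rose 10.5-fold in ctrl, from 38.1 to 44.6 FPKM at day 0 to 396 to 484 at day 7, 7.54-fold in Cre + NFIA, 3.71-fold in Cre, and did not pass in Δpro#3 cells, with 52.99 to 53.1 FPKM at day 0 and 68.1 to 85.1 at day 7. Gbe1 rose 5.8-fold, 5.51-fold and 2.16-fold in ctrl, Cre + NFIA and Cre. Rpia rose 4.98-fold, 2.48-fold and 1.76-fold, and Pfkfb3 4.44-fold, 4.55-fold and 2.89-fold in the same order. The change of a cell type difference from day 0 to day 7 was tested directly as an interaction. It passed for 12 genes toward lower and 2 toward higher values in Cre against ctrl (10.7% and 15% of all tested genes), for 2 and 9 in Cre + NFIA against Cre (16.1% and 11.1%; 3 and 6 after quantile normalization), and for 8 toward lower and 0 toward higher in Δpro#3 against Cre (5.36% and 2.21%; 0 higher also at an unadjusted limma p under 0.05 and by voom).

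**Figure D4:**
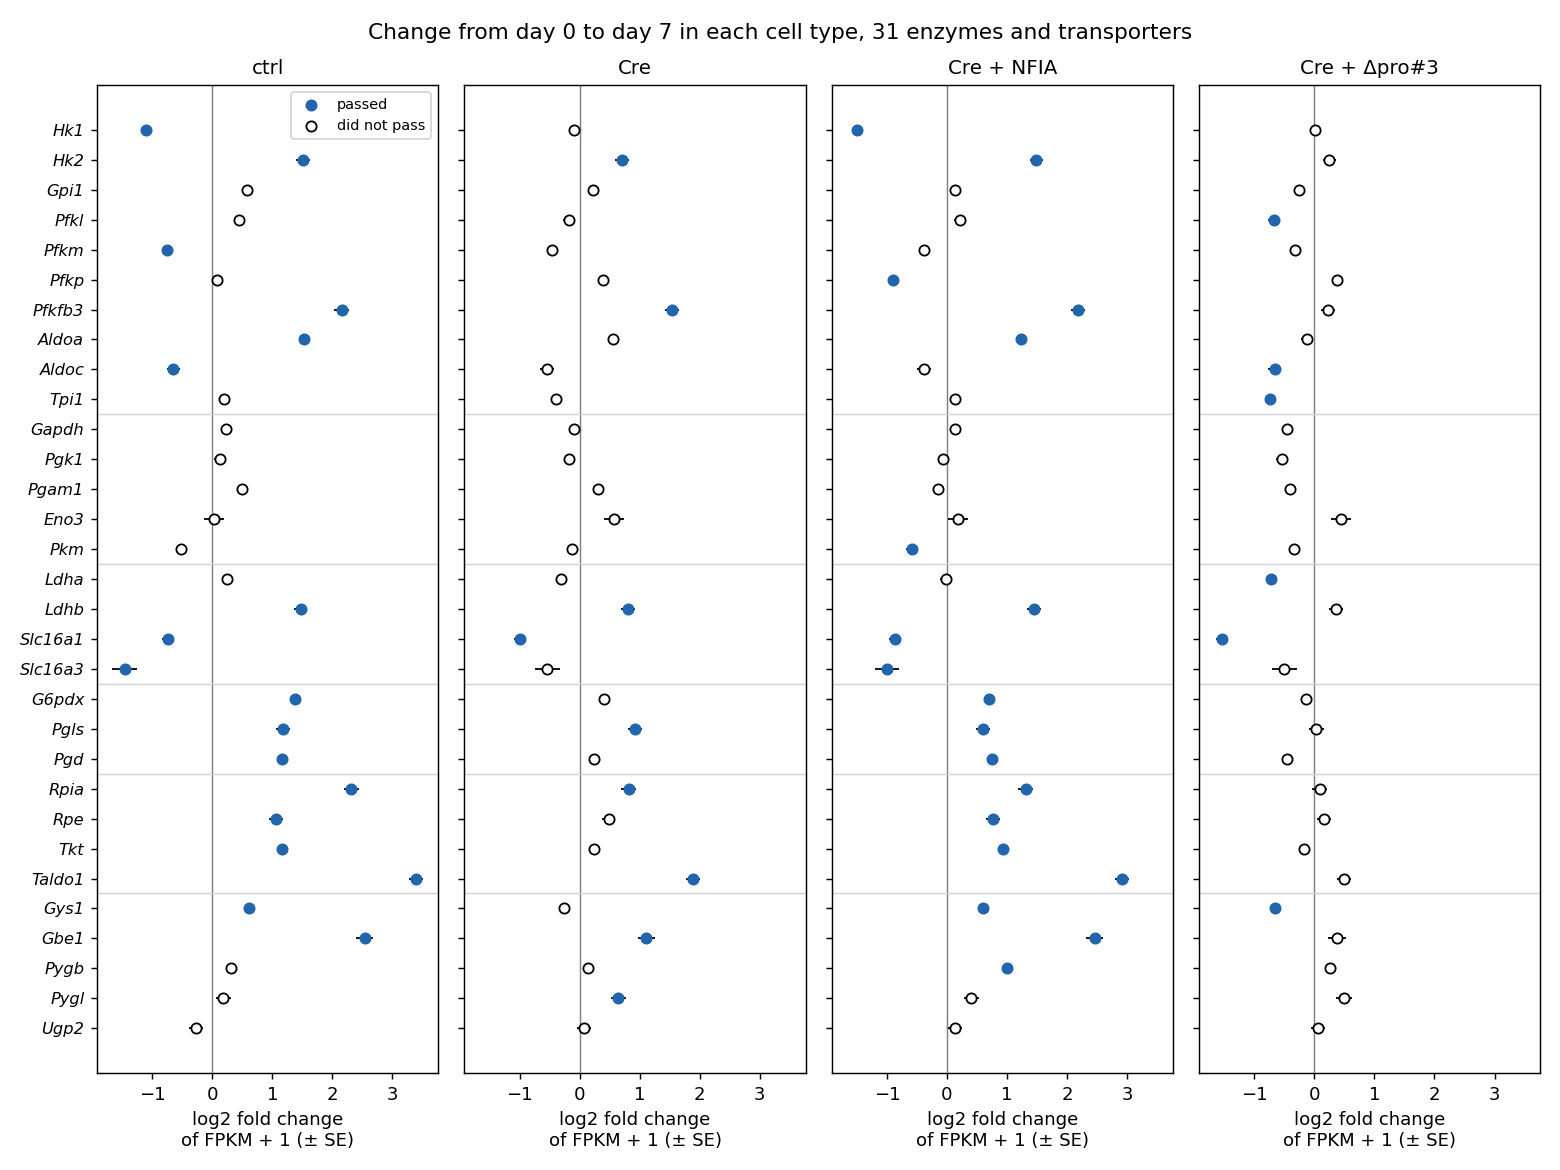
Log2 fold change of FPKM + 1 from day 0 to day 7 (x axis, bars are standard errors) of the 31 tested genes (y axis, in the order of the reactions) in each cell type, filled where the gene passed. The ctrl and Cre + NFIA panels hold 13 and 14 genes that rose, and the Δpro#3 panel holds 0, with Slc16a1 lowest at -1.54.

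Counts of falls over time, 5 each in ctrl and Cre + NFIA, were near the shares of all tested genes (19.4% and 19.2%). Slc16a1 fell in all 4 cell types, 1.67-fold in ctrl, 1.99-fold in Cre, 1.82-fold in Cre + NFIA and 2.91-fold in Δpro#3 cells. Hk1 fell 2.15-fold in ctrl and 2.84-fold in Cre + NFIA and did not pass in Cre or Δpro#3 cells. Slc16a3 fell 2.75-fold in ctrl and 2-fold in Cre + NFIA, Pfkm and Aldoc fell 1.68-fold and 1.57-fold in ctrl, and Pfkp and Pkm fell 1.87-fold and 1.51-fold in Cre + NFIA. The fall of Pkm did not pass without Cre + NFIA day 0 replicate 1 (log2 change -0.55) or day 7 replicate 1 (-0.53). In Δpro#3 cells Tpi1, Ldha, Pfkl, Aldoc and Gys1 fell with Slc16a1, by 1.57-fold to 1.67-fold, and Gys1 instead rose 1.53-fold in ctrl and 1.51-fold in Cre + NFIA cells. Without ctrl day 0 replicate 2 the rise of Gys1 in ctrl did not pass (log2 change 0.56), and without Cre + NFIA day 0 replicate 3, day 7 replicate 2 or day 7 replicate 3 neither did that in Cre + NFIA (0.56, 0.54 and 0.58). The rise of Pgls in Cre + NFIA was as close to the limit (1.52-fold) and was lost without day 0 replicate 1, day 7 replicate 2 or day 7 replicate 3 (0.57, 0.55 and 0.58).

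Further genes of these pathways were counted from a list of 66, of which 44 were tested. In Cre against ctrl at day 7, 15 fell and 7 rose, beside 9.92% and 13.6% of all tested genes. In Cre + NFIA against Cre 16 rose and 6 fell (12.6% and 16.2%), in Δpro#3 against Cre 9 fell (4.03%), and in Δpro#3 against Cre + NFIA 19 were lower and 8 higher (16.1% and 19.5%). The 7 that rose in Cre and the 6 that fell in Cre + NFIA were close to these shares. At 3-fold or more, Slc2a4, the insulin-regulated glucose transporter, went from 33.4 to 42.2 FPKM in ctrl to 7.67 to 17.35 in Cre, 46.2 to 49.2 in Cre + NFIA and 0.998 to 3.23 in Δpro#3 cells. Gpd1, which draws dihydroxyacetone phosphate from glycolysis into glycerol 3-phosphate, went from 1601 to 1989 FPKM to 196 to 453, 1727 to 1846 and 28.1 to 85.1 in the same order. Gys2, the second glycogen synthase, was at 5.24 to 7.41, 0.716 to 1.85, 6.82 to 7.95 and 0.0645 to 0.267 FPKM, and Ppp1r3d, a subunit that targets protein phosphatase to glycogen, at 15.1 to 16.8, 2.72 to 5.23, 16.4 to 17.9 and 1.13 to 2.21 FPKM. These 4 fell at least 3-fold in Cre against ctrl and rose at least 3-fold in Cre + NFIA against Cre. Pfkfb1 and Ppp1r3b, a second such subunit, rose 3.18-fold and 3.82-fold with NFIA against Cre, and Eno2, the neuronal enolase, fell 3.13-fold. In Δpro#3 against Cre + NFIA, Pdhb and Dlat, parts of pyruvate dehydrogenase, were 4.25-fold and 3.68-fold lower, Pgm2, a phosphoglucomutase, 3.71-fold, and Pdk4, a kinase of pyruvate dehydrogenase, 3.03-fold.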

How the data were processed

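RNA was sequenced from 24 libraries (TruSeq Stranded mRNA). The deposited values are FPKM per gene, which the authors made after alignment to mm9 with STAR 2.5.3a from uniquely aligned reads on the matching strand. FPKM times gene length gave whole reads for 100% of values (within 0.01 read), and these were used only as an alternative. Genes with at least 1 FPKM in at least 3 libraries were tested by limma 3.58.1 (R 4.3.3, trend) on log2(FPKM + 1), which understates changes of low genes. Fits within a day used its 12 libraries, and fits between days all 24. A gene passed at a Benjamini-Hochberg adjusted p under 0.05 over all 12640 genes and 1.5-fold. The steps were tested on simulated data with 3-fold changes in genes that were not low. Smaller changes, and changes of low genes, were not simulated. The members and gene lists were chosen with earlier results of these data known. All 32 genes were described by reaction. Values in every library were given for the 16 with the largest changes that passed in a day 7 comparison and their isozymes, and other pathway genes were named at 3-fold. Pseudocounts, filters, scalings, fold limits, voom, a replicate block and leaving out each library were tried. The 24 pairs of replicate libraries differed by more than sampling noise.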

Additional observations from a re-analysis of the deposited data

Results flagged for a closer look

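The difference between cell types changed from day 0 to day 7 in several genes, by a test of that change itself (the interaction of cell type and day, limma, all 24 libraries, adjusted p under 0.05 and 1.5-fold). The values are log2 changes at day 7 minus those at day 0. For Cre against ctrl, 12 genes had a lower value at day 7, beside 10.7% of all tested genes, namely Hk2 -0.80, Pfkl -0.63, Pfkfb3 -0.62, Aldoa -0.97, Ldhb -0.66, G6pdx -0.98, Pgd -0.93, Rpia -1.5, Tkt -0.92, Taldo1 -1.5, Gys1 -0.87 and Gbe1 -1.43. A higher value was found for Hk1 1.02 and Slc16a3 0.92, beside 15% of all tested genes. Those of Pfkl, Pfkfb3 and Ldhb did not pass without ctrl day 0 replicate 2 (-0.54, -0.53 and -0.56), nor did Pfkfb3 and Ldhb without Cre day 7 replicate 3 (-0.48 and -0.56), Pfkfb3 without Cre day 0 replicate 1 (-0.57) or Pfkl without Cre day 0 replicate 3 (-0.57).

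For Cre + NFIA against Cre, 9 genes had a higher value at day 7 (11.1% of all tested genes), namely Hk2 0.78, Pfkfb3 0.65, Aldoa 0.67, Ldhb 0.64, Tkt 0.69, Taldo1 1.02, Gys1 0.86, Gbe1 1.35 and Pygb 0.87, and 2 a lower one (16.1%), namely Hk1 -1.42 and Pfkp -1.29. Without Cre day 7 replicate 3, Aldoa, Ldhb and Pfkfb3 did not pass (0.57, 0.54 and 0.52), and Ldhb also not without Cre + NFIA day 0 replicate 2 (0.58). For Pfkp the difference was at day 0, where Cre + NFIA libraries held 15.0 to 15.7 FPKM, and at day 7 they held 7.32 to 7.96. That of Ldhb was also at day 0, at 35.9 to 37.8 FPKM in Cre and 20.8 to 24.7 in Cre + NFIA. At day 7 Ldhb overlapped between them, at 56.9 to 71.55 and 58.9 to 66.3 FPKM.

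For Δpro#3 against Cre, 8 genes had a lower value at day 7 (5.36% of all tested genes), namely Pfkfb3 -1.30, Aldoa -0.68, Pgam1 -0.72, Pgls -0.89, Pgd -0.69, Rpia -0.73, Taldo1 -1.39 and Gbe1 -0.73. By limma 0 had a higher value, also at an unadjusted p under 0.05 and by voom. In Δpro#3 against Cre at day 7 itself, Aldoa, Pgam1, Pgls and Pgd did not pass. Pgam1 and Pgls passed as higher in Δpro#3 at day 0. Pgam1 was then at 161 to 174 FPKM, beside 81.4 to 96.3 in Cre. At day 7 Pgam1 was at 120 to 137 FPKM in Δpro#3 and 110 to 115 in Cre. Without Cre day 7 replicate 2, Aldoa (-0.58), Rpia (-0.54) and Gbe1 (-0.60, adjusted p = 0.061) did not pass, and Gbe1 also not without Δpro#3 day 7 replicate 1 (adjusted p = 0.052). The 10 adipocyte markers, at 76.6 to 122 FPKM in sum at day 0, ranged from 853 to 25940 at day 7, and their part in these changes was not tested.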

How the results depend on the processing

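Of 142 passes of single genes, 0 changed direction in 2466 values under other settings, 2246 still passed and 220 did not. The 2246 include 142 with no fold limit, which pass by construction, and 1007 of 1050 from leaving out 1 library. Of the 220, 130 were lost with a 3-fold limit, 25 with a pseudocount of 5 and 18 with quantile normalization. With a 3-fold limit 4 genes passed in Δpro#3 against Cre + NFIA at day 7, beside 6.92% of all tested genes. Between days 4, 1, 3 and 0 passed in ctrl, Cre, Cre + NFIA and Δpro#3, beside 8.5%, 2.73%, 9.08% and 1.46%. In every other comparison, the interactions included, 0 passed by limma at that limit, beside 0.0237% to 3.63% of all tested genes. With no fold limit, 23 passed at day 7 in Cre against ctrl (5 higher and 18 lower, beside 36.1% and 22.7% of all tested genes). In Cre + NFIA against Cre 24 passed (20 and 4, beside 27% and 35.9%). Δpro#3 against Cre gave 12 (4 and 8, beside 7.7% and 10%). In Δpro#3 against Cre + NFIA 29 passed (6 and 23, beside 40.4% and 28.9%). Cre + NFIA against ctrl gave 10 (8 and 2, beside 8.81% and 9.15%). At day 0 there were 3 for Cre against ctrl (2 higher and 1 lower, beside 1.63% and 1.7%). Against Cre there were 18 for Cre + NFIA (15 and 3, beside 14.7% and 12.9%) and 19 for Δpro#3 (17 and 2, beside 9.26% and 9.02%). Between days 25 passed in Cre (18 and 7, beside 30% and 21.6%) and 20 in Δpro#3 cells (7 and 13, beside 24.5% and 17%). The interaction of Cre against ctrl gave 24 (6 and 18, beside 29.7% and 19.5%). Those of Cre + NFIA and Δpro#3 against Cre gave 18 (14 and 4, beside 18.8% and 30.1%) and 17 (0 and 17, beside 7.79% and 10.4%). By voom 2 genes passed in Cre + NFIA against ctrl, and with a pseudocount of 0.1 1 passed in Cre against ctrl at day 0. In these settings fewer or more genes pass by construction of the limit, and otherwise the cause was not tested.

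Leaving out 1 library at a time gave 9 to 13 genes in Cre against ctrl at day 7, 13 to 17 in Cre + NFIA against Cre, 3 (without Cre replicate 2) to 6 in Δpro#3 against Cre, 16 to 19 in Δpro#3 against Cre + NFIA and 0 (without Cre + NFIA replicate 2) to 1 in Cre + NFIA against ctrl. At day 0 it gave 0 to 1 (without Cre replicate 1) in Cre against ctrl, 4 to 7 in Cre + NFIA and 2 (without Cre replicate 2) to 4 in Δpro#3 against Cre. Between days it gave 18 to 19, 9 to 13, 17 to 19 and 6 to 7 in ctrl, Cre, Cre + NFIA and Δpro#3, and for the interactions 12 to 17, 8 to 13 and 5 (without Cre day 7 replicate 2) to 11. Of the 43 losses, 35 were by the fold limit alone. No pairing by replicate number was seen, since in 0 of 12 pairs of groups did every same-numbered pair correlate above 0.1 (mean r -0.16 to 0.056). Single pairs reached 0.20, and weak pairing could be missed by this rule. With the replicate block 10, 15, 5, 17 and 1 genes passed in the day 7 comparisons, and it changed no call.

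As shares of reads instead of FPKM, which weights the longer transcript more, Hk2 made up 10.17, 10.87, 10.18 and 9.384% at day 0 and 44.84, 18.76, 51.36 and 11.18% at day 7 in ctrl, Cre, Cre + NFIA and Δpro#3, and Pfkl 61.78, 63.03, 63.99 and 68.69% at day 0 and 77.1, 65.01, 75.18 and 60.49% at day 7. Median-of-ratios scaling shifted the median of all genes by -0.10 in Cre against ctrl at day 7. It gave 13 passes in place of 10 there (12 of them lower), 19 in place of 15 in Cre + NFIA against Cre and 21 in place of 17 in Δpro#3 against Cre + NFIA, and over all comparisons it ended 1 of the 142 passes, that of Pkm between days in Cre + NFIA. Depth limits low genes such as Aldoc, and a loss of reads to near-identical copies was not tested.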

Other observations

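Genes outside these pathways that are often described beside them gave mixed values at day 7. Of 13 tested hypoxia-responsive genes without a role in glycolysis, 4 rose (Adm, Ndrg1, P4ha1 and P4ha2) and 2 fell (Bnip3 and Egln3) in Cre against ctrl, beside 13.6% and 9.92% of all tested genes. In Cre + NFIA against Cre 3 rose, among them Egln3, a prolyl hydroxylase that marks hypoxia-inducible factors for decay (3.49-fold), and Bnip3, a mitophagy receptor (3.36-fold), and 4 fell, beside 12.6% and 16.2% of all tested genes. Of 8 tested antioxidant genes known as targets of Nfe2l2, 4 rose in Cre against ctrl (Gclc, Gsta4, Hmox1 and Nqo1) and 4 fell in Cre + NFIA against Cre (Gsta4, Nqo1, Hmox1 and Srxn1), to be read beside the same shares. With so few genes, counts of 2 or 3 lie near them.

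Of 7 regulators, 3 fell in Cre against ctrl, beside 9.92% of all tested genes. In Cre + NFIA against Cre 3 rose and 1 fell (Nfe2l2), beside 12.6% and 16.2%, and the 1 that fell is near its share. In Δpro#3 against Cre 2 fell, beside 4.03%. In Δpro#3 against Cre + NFIA 3 were lower and 3 higher (Hif1a, Myc and Nfe2l2), beside 16.1% and 19.5%. The median log2 change of the 7 was 0.10 in Cre against ctrl and -0.22 in Cre + NFIA against Cre. Mlxipl, which encodes the carbohydrate response factor ChREBP, was 2.80-fold lower in Cre than in ctrl, 2.21-fold higher in Cre + NFIA than in Cre and 5.42-fold lower in Δpro#3 than in Cre cells. Srebf1, a regulator of fatty acid synthesis, was 2.75-fold lower, 3.13-fold higher and 2.07-fold lower in the same comparisons. Ppargc1a, a coactivator of mitochondrial genes, was 1.82-fold lower in Cre than in ctrl, 5.14-fold higher in Cre + NFIA than in Cre, and 2.82-fold higher in Cre + NFIA than in ctrl.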
